A study of Homo sapiens with 3 samples.

Results

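The imprinted differentially methylated regions are stretches of DNA that carry CpG methylation on the copy inherited from one parent and lack it on the other. Here they were the 11 hg19 windows of 10 imprinted genes, H19, KCNQ1OT1, SNRPN, MEST, PEG3, PEG10, GNAS, MEG3, PLAGL1 and GRB10. GNAS had 2 windows and each other gene had 1. The windows were chosen with earlier results of these data known. A peak belonged to a window when it shared at least 1 bp with it, whatever its score. By this rule, 0 of 38 peaks of the Myc-IdaxDBM list and 3 of 17089 peaks of the Myc-Idax list were members.

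The peaks came from chromatin immunoprecipitation and sequencing (ChIP-seq) of HEK293T, a kidney-derived human embryonic cell line that expresses the large T antigen of SV40. Stable lines had been made by transfection with a DNA-binding mutant of Myc-tagged Idax (Myc-IdaxDBM), with the wild-type protein (Myc-Idax) or with an empty vector, and an anti-c-Myc agarose gel was used on all 3. Each of the first 2 had 1 peak list, called over the empty-vector cells, so no replicate error could be given and no test between the lists was possible. Whether a line was 1 clone, and how the 2 replicates per condition of the design text were merged into 1 list, are not stated by the labels. Read depth is unknown.

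Idax, also called CXXC4, carries a zinc finger of the CXXC family, which recognises CpG sites without methylation. An imprinted region thus offers, in principle, an unmethylated and a methylated copy of the same sequence in 1 nucleus. Most such regions receive their methylation in the egg and lie at a promoter that is then active from the paternal copy, while a few, such as that of H19, receive it in sperm. The KRAB zinc finger protein ZFP57 binds the methylated form of the motif TGCCGC and helps to keep these marks in the early embryo. The methylation of the windows in these lines, and the number of copies of each chromosome in HEK293T, were not measured in the lists.

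The promoters below are shown to make the sequence of these loci visible, with every CpG in capitals. Each run is the 250 bases before a transcription start in RefSeq (GRCh38.p14), read 5′ to 3′ on the strand of the gene. PLAGL1 had a Myc-Idax peak in its window and the other 3 genes had none. The start of PLAGL1 is the one it shares with HYMAI, and that of SNRPN the one it shares with SNURF. Both are known as the imprinted promoters of their loci. No coordinate was moved between GRCh38 and hg19, so which of these bases lie in a window was not determined.
PLAGL1 and HYMAI, chr6:144008260-144008509, minus strand: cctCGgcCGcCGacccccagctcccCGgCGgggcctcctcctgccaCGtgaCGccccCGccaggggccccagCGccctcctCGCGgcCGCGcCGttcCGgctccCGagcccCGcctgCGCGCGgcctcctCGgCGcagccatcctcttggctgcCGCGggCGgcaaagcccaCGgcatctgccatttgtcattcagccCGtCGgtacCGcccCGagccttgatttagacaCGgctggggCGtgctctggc
SNRPN and SNURF, chr15:24954737-24954986, plus strand: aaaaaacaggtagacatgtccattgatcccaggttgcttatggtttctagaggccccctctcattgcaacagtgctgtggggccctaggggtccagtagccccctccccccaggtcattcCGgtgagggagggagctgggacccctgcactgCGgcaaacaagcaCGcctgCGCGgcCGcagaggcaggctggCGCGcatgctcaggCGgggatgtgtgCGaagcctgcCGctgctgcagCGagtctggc
H19, chr11:2001267-2001516, minus strand: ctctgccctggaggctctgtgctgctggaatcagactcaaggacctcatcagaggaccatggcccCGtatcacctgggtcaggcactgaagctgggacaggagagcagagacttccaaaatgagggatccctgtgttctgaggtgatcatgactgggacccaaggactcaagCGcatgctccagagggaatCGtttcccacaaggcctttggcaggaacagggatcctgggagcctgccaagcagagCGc
MEG3, chr14:100825858-100826107, plus strand, the first of its 3 starts: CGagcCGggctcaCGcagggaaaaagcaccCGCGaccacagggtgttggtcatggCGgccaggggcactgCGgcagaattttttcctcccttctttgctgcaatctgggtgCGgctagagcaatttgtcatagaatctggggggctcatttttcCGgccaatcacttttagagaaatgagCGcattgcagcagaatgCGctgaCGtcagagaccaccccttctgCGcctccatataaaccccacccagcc

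These 4 promoters differed in CpG content. The PLAGL1 and HYMAI promoter held 32 CpG in 250 bases with a GC content of 75.6%, and 8.15% of the 35116 starts in the table held more. The MEG3 promoter held 13 CpG, that of SNRPN and SNURF held 12, and the run before the only H19 start listed held 4. Whether that start is the main one of H19 was not determined. The median over all starts was 11 CpG. These 4 starts were picked as examples, so they do not compare genes with and without a peak. The other PLAGL1 starts held 21, 1, 3 and 1 CpG. GRB10, without a peak in its window, had starts with 40 and 37. The motif TGCCGC, searched on both strands (GCGGCA on the other), occurred 2 times in the PLAGL1 and HYMAI promoter and 2 times in that of SNRPN and SNURF. It occurred 1 time in that of MEG3 and 0 times in the H19 run. It was present in 12.7% of all starts.

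Of the 11 windows, 0 had a Myc-IdaxDBM peak and 3 had a Myc-Idax peak, at KCNQ1OT1, at the second GNAS window and at PLAGL1. As background, the span of each chromosome was divided into tiles of 2587 bp, the median width of the windows. A Myc-IdaxDBM peak touched 0% of the windows and 0.00397% of the 1157992 tiles, and at so low a share a count of 0 in 11 says little about the windows. A Myc-Idax peak touched 27.3% of the windows and 2.07% of the tiles, or 3.72% of tiles as wide as the widest window. The tiles take in gene-poor and unassembled sequence while the windows are known regulatory regions, so these shares do not compare like with like, and no promoter or CpG island background on hg19 was used here. Among tiles of 2587 bp within 500 kb of a window, 2.33% of 4246 had a Myc-Idax peak, with sequence near more than 1 window counted for each. Myc-IdaxDBM peaks covered 0 of the 37901 bp of the windows, and Myc-Idax peaks covered 4763 bp (12.6%). Over the chromosome spans Myc-Idax peaks covered 0.707%, and the same limit holds for these shares.

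**Figure D1:**
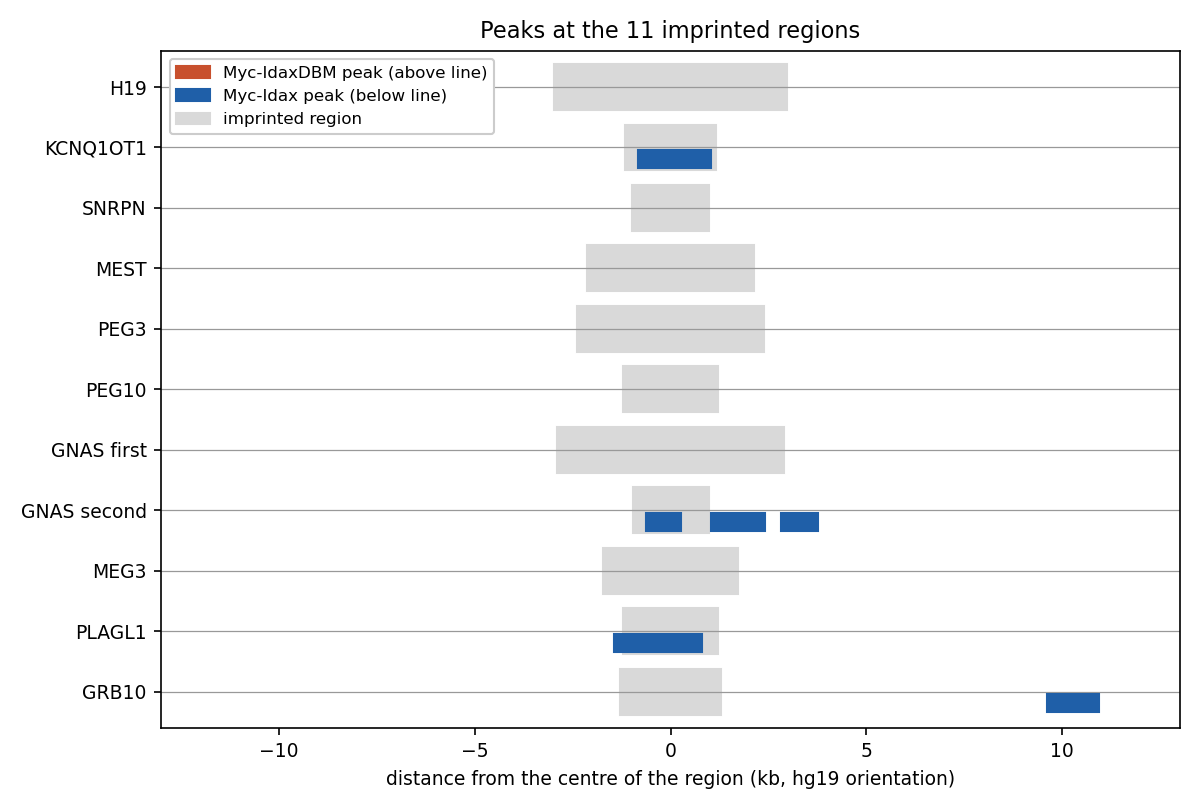
Each row is 1 imprinted region, with distance from its centre in kb on hg19 along the horizontal axis; grey boxes are the regions, Myc-IdaxDBM peaks would be drawn above the line and Myc-Idax peaks are drawn below it, all to scale. No Myc-IdaxDBM peak falls in the range shown, and Myc-Idax peaks lie in the KCNQ1OT1, second GNAS and PLAGL1 regions.

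KCNQ1OT1 is a long non-coding RNA transcribed from within KCNQ1, opposite to it, and its promoter region controls a cluster of maternally expressed genes. Its window, chr11:2719948-2722259, is 2312 bp wide. The Myc-IdaxDBM list had no peak in it, and the Myc-Idax list had 1 peak at chr11:2720275-2722147 with a score of 991.03. This was the highest score among the 3 member peaks, rank 430 of 17089 in the list and rank 15 of 855 on chromosome 11. The score is the authors' own value from the peak caller, on a scale the list does not state. The peak lay wholly inside the window and covered 81% of it, from 327 bp after the start of the window to 112 bp before its end, and its midpoint was 107.5 bp from the centre of the window. With 1873 bp it was wider than 88.5% of Myc-Idax peaks.

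The KCNQ1OT1 peak stood far from others. The next Myc-Idax peaks were 298 kb below it and 183 kb above it, and 92.7% of the list had a closer neighbour. The median gap to the nearest other peak was 23.2 kb over the list. Within 500 kb of it there were 12 other Myc-Idax peaks, with a median score of 155 and a highest score of 659.16, so that the peak in the window had the highest score of the 13.

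PLAGL1 encodes a zinc finger transcription factor that slows cell growth, and HYMAI is a non-coding RNA from the same promoter. The window, chr6:144328078-144330500, is 2423 bp wide and had no Myc-IdaxDBM peak. The Myc-Idax peak at chr6:144327834-144330083 had a score of 401.27, rank 4374 of 17089, and a width of 2250 bp. It was wider than 94.7% of the list. It began 244 bp before the window, ended 417 bp before the end of the window and covered 82.8% of it, and 89.2% of the peak lay inside.

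Unlike at KCNQ1OT1, Myc-Idax peaks of higher score lay near the PLAGL1 window. Those at chr6:144384313-144386338 and chr6:144416151-144417797, which began 53812 bp and 85650 bp past its end, scored 541.48 and 581.89. The peak in the window ranked 6 of the 10 within 500 kb, of which the highest other score was 1654.89.

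GNAS encodes the alpha subunit of the stimulatory G protein and has several alternative first exons, some of them active from 1 parental copy only. Its first window was chr20:57425649-57431463 and its second was chr20:57463265-57465201. Which exons or starts lie in them was not determined. The Myc-IdaxDBM list had no peak in either. The Myc-Idax list had no peak in the first and 1 peak in the second, at chr20:57463617-57464500, with a score of 95.08 and a width of 884 bp. This was the lowest score among the 3 member peaks, rank 13573 of 17089, and the peak covered 45.6% of its window.

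The GNAS peak was the first of 3 neighbouring Myc-Idax peaks. The next, at chr20:57465261-57466647, scored 307.82 and followed after 760 bp, with 59 bp between the end of the second window and its first base. The last, at chr20:57467054-57467996, scored 56.74 and followed after another 406 bp. The peak of highest score in this group thus lay just outside the window, and the count of 3 windows with a peak includes GNAS through a peak of lower score. The first GNAS window lay 32153 bp below the group, and on its other side the nearest Myc-Idax peak, with a score of 55.53, was 198 kb away.

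**Figure D2:**
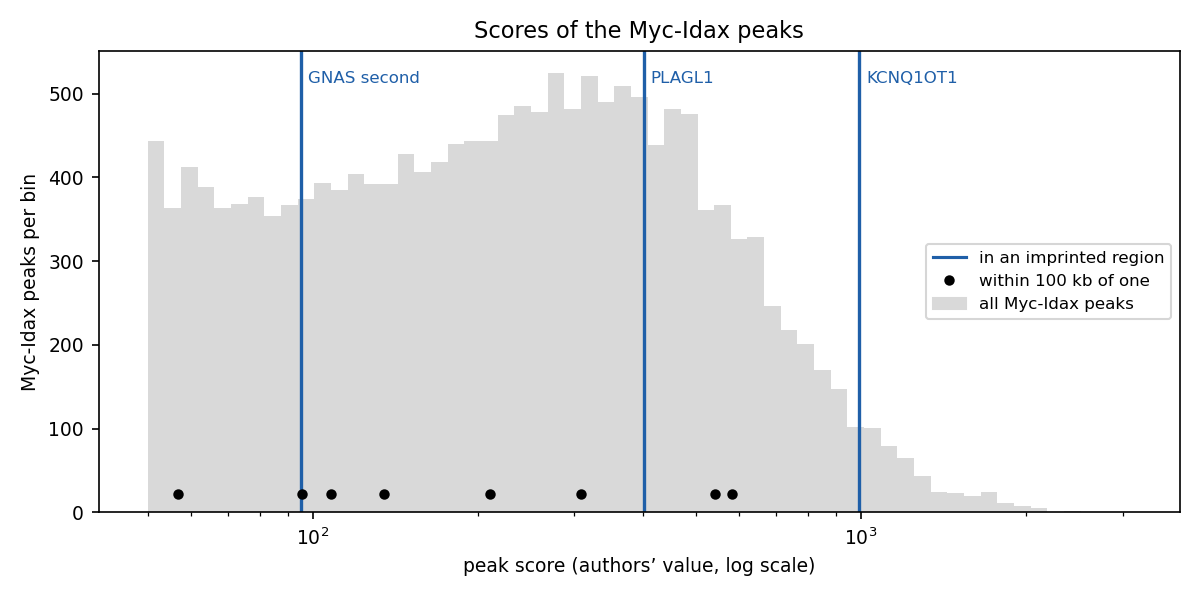
Grey bars count the 17089 Myc-Idax peaks by the authors' score (horizontal, log scale); blue lines mark the 3 peaks in imprinted regions and black points the 8 other peaks within 100 kb of a region, drawn at one height. The KCNQ1OT1 peak (991.03) lies in the upper tail, PLAGL1 (401.27) lies near the upper quartile of 407.8 and GNAS (95.08) lies below the lower quartile of 109.3.

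No peak of either list overlapped the windows of the other 7 genes, and with the first GNAS window this made 8 windows and 31229 bp without a peak. They were 1973 to 5929 bp wide, against 1937 to 2423 bp for the 3 windows with a Myc-Idax peak. The widths overlapped, with SNRPN (1973 bp, no peak) narrower than KCNQ1OT1 and PLAGL1. The distance from a window without a peak to the nearest Myc-Idax peak had a median of 97.4 kb and ran from 8.32 to 481 kb. A peak list gives only sites past the authors' threshold, so a window without a peak is not shown to lack binding.

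GRB10, an adaptor protein that dampens insulin and growth factor receptor signals, came closest. Its window, chr7:50848726-50851312, had no peak of either list, and a Myc-Idax peak at chr7:50859628-50860950 with a score of 108.02 began 8315 bp past its end. The nearest on the other side was 313 kb away and scored 50.61, close to the lowest score of the Myc-Idax list (50.01). GRB10 was thus the only one of the 8 windows without a peak that had a Myc-Idax peak within 10 kb.

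H19, a non-coding RNA expressed from the maternal copy beside IGF2, and MEST, a hydrolase-like protein expressed from the paternal copy in development, had their nearest Myc-Idax peaks at like distances. The H19 window, chr11:2018812-2024740, is the widest with 5929 bp. Its nearest Myc-Idax peak, of score 134.94, was 49.5 kb below it, and the next on the other side, of score 51.05, was 265 kb away. The MEST window, chr7:130130122-130134388, had a Myc-Idax peak of score 210.78 at 48.8 kb below it and 1 of score 278.06 at 218 kb above it. Neither gene had a peak of either list in its window.

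The remaining 4 windows had no Myc-Idax peak within 100 kb. PEG10, a gene derived from a retrotransposon and needed in the mouse placenta, had its nearest Myc-Idax peak 145 kb from its window chr7:94285537-94287960, with a score of 162.99. PEG3, a zinc finger protein gene, had its nearest 241 kb from chr19:57348493-57353271, with a score of 133.45. MEG3, a maternally expressed non-coding RNA, had its nearest 237 kb from chr14:101290524-101293978, with a score of 119.18. SNRPN, which encodes a splicing protein and whose start region is part of the Prader-Willi imprinting centre, lay farthest. From its window, chr15:25200004-25201976, the nearest Myc-Idax peak was 481 kb above (score 202.59) and the next was 1076471 bp below (score 100.01).

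**Figure D3:**
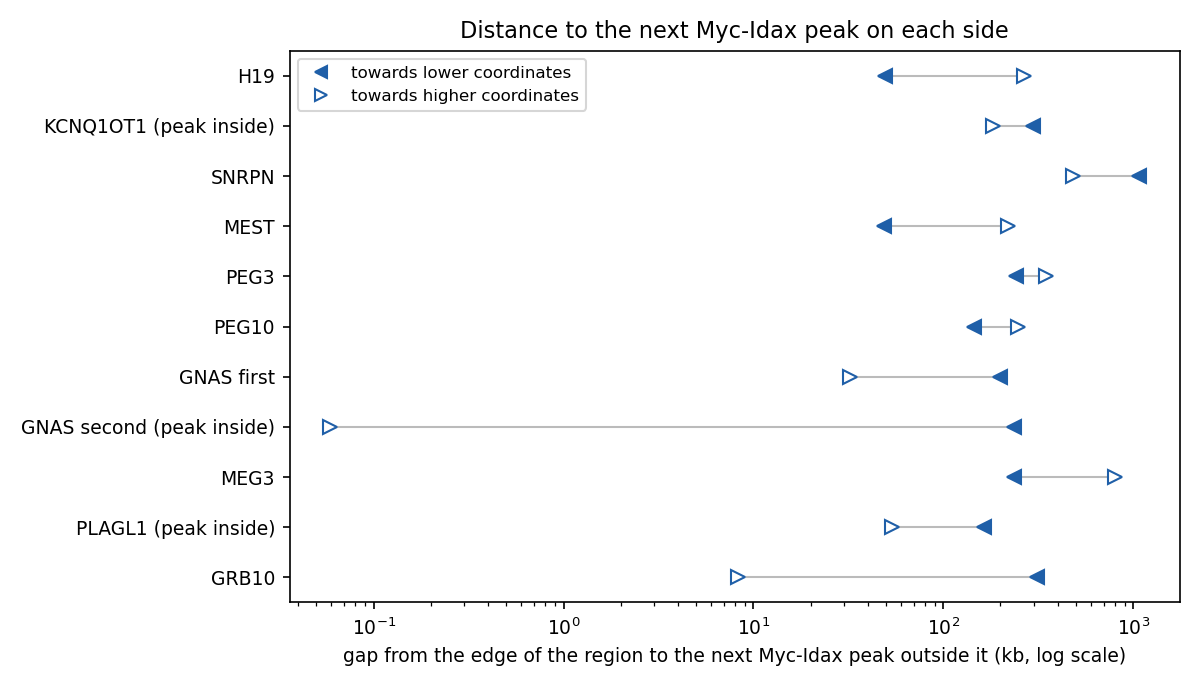
For each imprinted region, triangles give the gap in kb (log scale) from its edge to the next Myc-Idax peak outside it, filled towards lower and open towards higher hg19 coordinates. The second GNAS region has a peak 59 bp away, GRB10 has 1 at 8.32 kb, and SNRPN has none closer than 481 kb on either side.

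The surroundings of the windows also differed in how many Myc-Idax peaks they held. Within 500 kb on either side, and leaving out the windows themselves, the 3 windows with a Myc-Idax peak had 9 to 12 peaks per Mb. The 8 windows without one had 1 to 11 per Mb with a median of 6, against 5.7 per Mb over the whole list. H19, with 11 peaks per Mb around it, the first GNAS window, with 10, and MEST and PEG3, with 9 each, were in surroundings as rich as those of the windows with a peak. SNRPN had 1 per Mb, and PEG10 and MEG3 had 2 each. The surroundings of H19 and KCNQ1OT1, and of the 2 GNAS windows, overlap and are not independent, and the count around the first GNAS window includes the peak in the second.

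By the parent whose copy is methylated, as textbooks give it, 9 windows are maternally and 2 (H19 and MEG3) are paternally methylated. In the maternally methylated group 0 windows had a Myc-IdaxDBM peak and 3 had a Myc-Idax peak. In the paternally methylated group 0 windows had a peak of either list. With 2 windows in that group, the counts allow no comparison. The grouping was made after the peaks were seen.

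Myc-IdaxDBM peaks were far from all windows, and with 38 peaks in the whole list such distances say little about the windows. On the 7 chromosomes with a window the Myc-IdaxDBM list had 4 peaks in all. The nearest was 0.806 Mb below the H19 window, at chr11:1212795-1213075, with a score of 55.31, and the same peak was 1.51 Mb below the KCNQ1OT1 window. For MEG3 the nearest was 4.33 Mb away, at chr14:105628802-105629032, with a score of 59.46. The other 8 windows had no Myc-IdaxDBM peak on their chromosome. The protein amount in each line and the depth of each library are not in the lists, and their part in this difference was not tested.

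CpG content upstream of the genes was examined as a feature that the choice of windows did not use. The RefSeq promoter set used here gave 29 starts for 7 of the 10 genes. KCNQ1OT1, PEG3 and PEG10 had no start in it. The gene whose window held the member peak of highest score, KCNQ1OT1, was thus not measured. GNAS, with a Myc-Idax peak in its second window only, and PLAGL1 together had 11 starts with 1 to 33 CpG and a median of 18. The GNAS starts held 9 to 33 CpG, while those of PLAGL1 held 21, 1, 32, 3 and 1. The other 5 genes had 18 starts with 1 to 40 CpG and a median of 11.5, and the ranges overlapped. The highest values, 40 and 37 CpG, belonged to GRB10, which had no peak in its window. SNRPN had 1 to 12 CpG at its 4 starts, and MEST had 9 to 20 at its 5. Most of these genes have several starts and those inside a window were not determined, so a gene's CpG number is not that of its window. The motif TGCCGC was present at 9 of the 29 starts (31%), against 12.7% of all starts. These starts belonged to 6 of the 7 genes, and no share over all genes was computed. The motif contains a CpG, and the 29 starts had a median of 13 CpG against 11 over all starts. The shares were not matched for CpG content. Several of the starts overlap each other, as the 3 of MEG3 do, and a match is not a binding site.

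**Figure D4:**
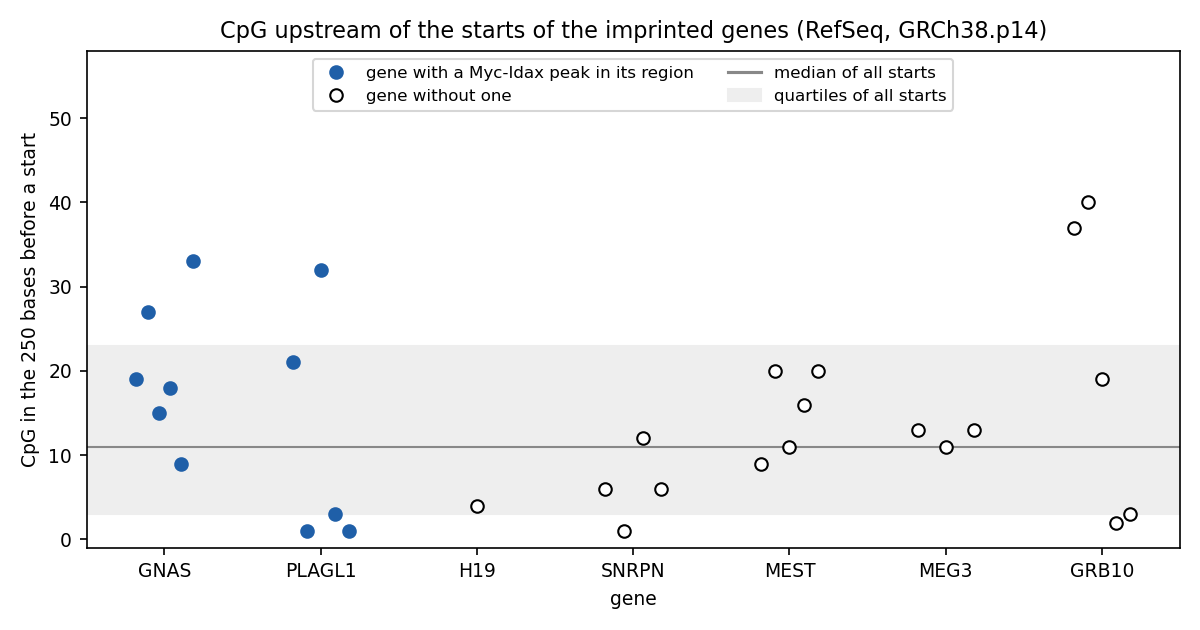
Points give the number of CpG in the 250 bases before each RefSeq start (GRCh38.p14) of 7 imprinted genes; filled blue points are genes with a Myc-Idax peak in a window and open points genes without one. The line at 11 and the band from 3 to 23 are the median and quartiles of all 35116 starts, and the highest points belong to GRB10. KCNQ1OT1, which had a Myc-Idax peak in its window, and PEG3 and PEG10, which had none, had no start in the set and are not shown.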

How the data were processed

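The deposited files gave 1 peak list each for Myc-IdaxDBM and Myc-Idax, with 5 columns and no header. The empty-vector cells entered as the control of the peak calling, per the design text. Bowtie 0.12.7 and MACS 1.4.1 are the tools, and hg19 the build, listed in the submitters' processing notes. Peak scores were deposited by the authors without a stated scale. Scores were used to describe and rank peaks within 1 list.

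Peak starts were converted to 1-based positions, and the windows were taken as 1-based. Overlap meant at least 1 bp. The background tiles ran from the first to the last Myc-Idax peak of each chromosome, with unassembled sequence not masked. Neither sequence nor annotation of hg19 was used, so peaks were not assigned to genes or exons. Promoter sequences are from RefSeq (GRCh38.p14). All 10 genes are named, each with every overlapping peak or the nearest ones. The windows and gene lists were chosen with earlier results of these data known. No statistical test was run. The code that counts overlaps and tiles was checked against a base-by-base count on made-up intervals, which gives no chance expectation for the counts reported. Python 3.11.15, numpy 2.4.6, pandas 2.3.3 and matplotlib 3.10.9 were used.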

Additional observations from a re-analysis of the deposited data

How the results depend on the processing

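The number of windows with a Myc-IdaxDBM peak was 0 under all 8 alternatives tried. The number with a Myc-Idax peak stayed between 2 and 4 under 9 alternatives. It was 2 when peaks had to cover 50% of the window, and also at a minimum score of 100 or, chosen after seeing the data, at the median score of the list. The second GNAS window was the one lost in each of these. It was 4 with windows widened by 10 kb, also chosen after seeing the data, which brought in GRB10. Widening by 1 kb or 5 kb, the midpoint rule, the rule of 50% of the peak and merging within 1 kb gave 3. Counted as peaks, the 3 members became 4 with windows widened by 1 kb and 2 at a minimum score of 100. The share of tiles with a Myc-Idax peak was 1.73% at the width of the narrowest window, 3.72% at that of the widest, 2.63% on the 7 chromosomes with a window and 1.71% at a minimum score of 100. No paired analysis was possible because the 2 lists carry no replicate numbers, and for the same reason no replicate was left out in turn. Read depth is unknown, so sites below the authors' threshold were not seen.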

Other observations

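Of 22 neighbouring imprinted or domain genes listed for their promoter sequence, 13 had a start in the RefSeq promoter set used here, with 17 starts in all. A gene absent from that set is not shown to lack a RefSeq start. These starts held 0 to 37 CpG in 250 bases with a median of 15, against 11 over all starts. UBE3A, a ubiquitin ligase gene of the SNRPN domain, had 31 to 37 CpG at its 3 starts, and CPA4, a carboxypeptidase gene near MEST, had 0. The motif TGCCGC was present at 4 of the 17 starts (23.5%, against 12.7% of all starts), of which the SNURF and HYMAI starts are shared with SNRPN and PLAGL1. These shares were not matched for CpG content. The peaks were not assigned to these genes.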
